A study of Homo sapiens with 6 samples.

Results

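The genes described here are MYC and the transcription factors that share its dimerisation network: MYC, MYCN, MYCL, MAX, MXD1, MXD3, MXD4, MNT, MLX and MGA. They were taken by symbol, and 10 of the 28278 symbols in each table are members. The study sequenced polyadenylated RNA of RKO, a colon carcinoma cell line of human origin. It had 3 libraries from GSK3B knockout cells (KO) and 3 from GSK3B wild-type cells (WT), set up to show how transcript levels change when GSK3B is lost. The labels give neither the way the knockout was made nor whether the cells were 1 clone or a pool, and they state no age, treatment or second allele. They also do not say that replicates were separate cultures, so p-values measure the spread between these libraries, which may be technical.

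MYC pairs with MAX and binds the E-box, a short palindromic DNA motif, where it raises transcription of genes of growth, nucleotide supply and ribosome production. MXD and MNT proteins pair with MAX at the same motif and recruit SIN3 and NCOR corepressors, while MLX is the partner of the glucose-sensing factors MLXIP (MondoA) and MLXIPL (ChREBP) and of some MXD proteins. MGA pairs with MAX inside a Polycomb complex, PRC1.6. GSK3 phosphorylates the MYC protein at a site that the ubiquitin ligase FBXW7 then recognises, so GSK3 is known to act on MYC after translation. Only RNA was measured here, and neither MYC protein nor its phosphorylation is part of these data.

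Total counts ran from 32379369 to 33558362 per library. CPM is the count of a gene divided by the library size, scaled by the trimmed mean of M values (TMM), times 1000000, and a gene is called changed below where edgeR's quasi-likelihood test gave a Benjamini-Hochberg adjusted p under 0.05 over 14409 tested genes. GSK3B, the gene named in the label, had 46.0, 47.5 and 47.1 CPM in KO replicates 1 to 3, against 99.0, 97.6 and 91.4 CPM in WT replicates 1 to 3. Its transcript level in KO libraries was 48.8% of the WT level (95% interval 45.4 to 52.4), so reads were still counted to the gene in libraries labelled knockout. The paralog GSK3A had 86.4 ± 2.29 CPM in KO and 84.5 ± 4.57 CPM in WT libraries (SD, n = 3). Of 12 epithelial and intestinal markers, 5, among them KRT8, KRT18, VIL1 and CDX2, averaged over 1 CPM, while CDH1 and CDX1 were listed at 0 in all libraries. EPCAM, the fifth, averaged 1.07 ± 0.0394 CPM in KO and 3.43 ± 0.951 CPM in WT libraries (SD, n = 3). VIL1 shares 3045 of its 6920 exon bases with USP37 on the other strand, and KRT8 shares 525 with KRT18. CD68, given below, shares 1789 of its 2189 exon bases with AC016876.2 on the same strand. The 8 fibroblast markers summed to 1.12 to 1.23 CPM in KO libraries and 2.37 to 6.16 CPM in WT libraries, with the highest sum in WT replicate 3. PDGFRB alone had 0.560 to 0.792 CPM in KO and 1.61 to 2.14 CPM in WT libraries. COL1A2, COL3A1 and DCN had 23, 18 and 25 counts in WT replicate 3 and at most 2 counts in any other library. CD68, a leukocyte marker that other cells also express in their lysosomes, averaged 756 ± 2.52 CPM in KO and 749 ± 12.2 CPM in WT libraries (SD, n = 3), while PTPRC and CD3E were listed at 0. The sums of leukocyte markers other than CD68 and of endothelial, red cell and neural markers were each at most 1.09 CPM in any library. The part that the difference in fibroblast markers has in the results was not tested. In bulk RNA fewer cells of a type and less RNA per cell cannot be told apart. Without WT replicate 3 the 4 members called below were also called, where 7.03% of all genes were called lower, at -0.21 for MYC, -0.71 for MYCL, -0.35 for MXD4 and -0.24 for MNT on the log2 scale.

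Transcripts of 4 members, MYC, MYCL, MXD4 and MNT, were lower in KO than in WT libraries. MAX, MXD1, MXD3, MLX and MGA did not pass the test, and MYCN was listed at 0 throughout. Genes whose proteins activate with MAX and genes whose proteins repress with it were both among the 4. Of 9 tested members 4 were called lower, where 7.18% of all tested genes were called lower and 13.5% were called in either direction. In the edgeR fit as described above and in limma-voom 0 members were called higher, and DESeq2 called 1 higher, MGA. Under other settings edgeR also called MGA or MXD3 higher, as given with those genes. Of all genes 6.36% were called higher by edgeR, 6.33% by limma-voom and 6.23% by DESeq2. At an unadjusted p under 0.05 in edgeR 1 member was higher and 4 were lower, where 13.9% of all tested genes were higher and 14.1% lower. The members' median log2 fold change was -0.07, against 0.00067 over all tested genes. Without KO replicate 1, KO replicate 2 or WT replicate 2 the count was 3 in each case, as MNT no longer passed, against 4.36%, 4.03% and 4.22% of all genes called lower.

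MYC was by far the most abundant member, also per length. Its level, as CPM per kilobase of annotated exon, was 153 ± 2.43 in KO and 179 ± 4.68 in WT libraries (SD, n = 3). MXD3 followed with 28.5 ± 0.711 in KO and 28.0 ± 0.869 in WT libraries, then MLX with 22.8 ± 0.307 in KO and 23.9 ± 0.870 in WT libraries and MAX with 17.03 ± 0.704 in KO and 16.4 ± 0.499 in WT libraries. MXD1, at 8.40 ± 0.208 in KO and 8.22 ± 0.398 in WT libraries, came next in both groups. MGA had 6.04 ± 0.105 in KO and 5.50 ± 0.255 in WT libraries and MXD4 had 4.19 ± 0.153 in KO and 5.55 ± 0.382 in WT libraries. In KO libraries MGA stood above MXD4 with no overlap between libraries, whereas in WT libraries the values of MXD4 and MGA overlapped and their order was not resolved. MNT had 2.63 ± 0.185 in KO and 3.17 ± 0.164 in WT libraries and MYCL 1.02 ± 0.122 in KO and 1.77 ± 0.187 in WT libraries, the lowest detected. All other neighbours in this order were separated in every library, and dividing by the longest annotated transcript gave the same order. Lengths are those of GENCODE 29, and 4 detected members share exon bases with other genes of the tables, so their reads could be split. MXD3 shares 926 of its 5154 exon bases with RAB24 and 1158 with PRELID1. MLX shares 770 of its 4259 exon bases with PSMC3IP, MXD1 shares 237 of its 6351 exon bases with SNRNP27, and MXD4 shares 80 of its 7058 exon bases with MIR4800.

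**Figure D1:**
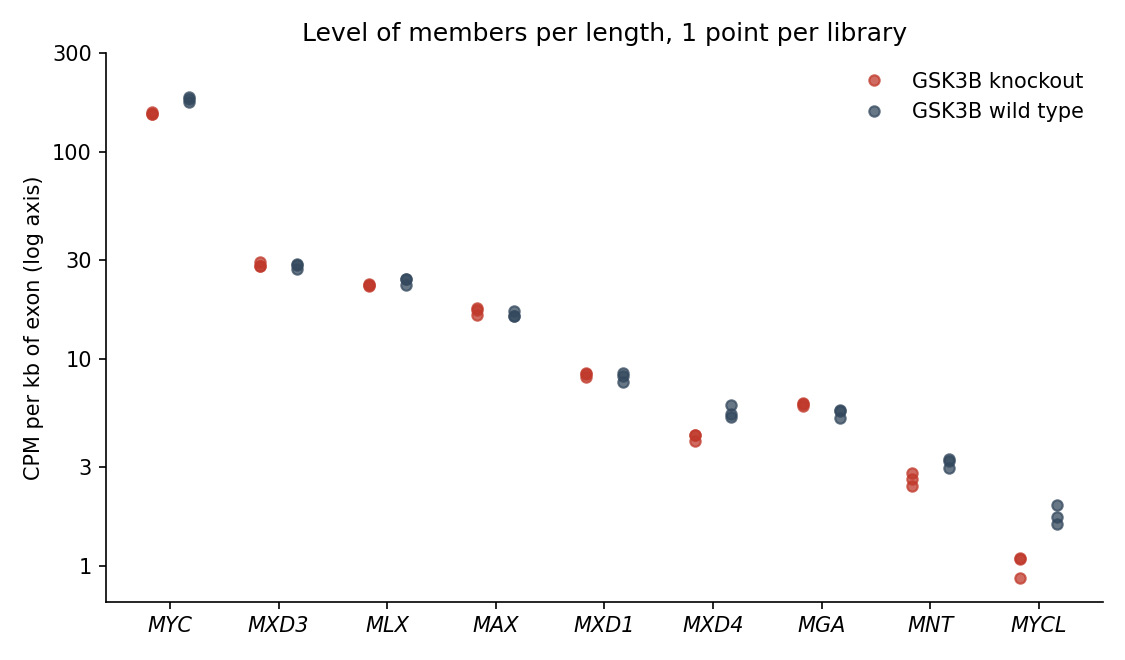
Level of each detected member in CPM per kilobase of annotated exon, on a log axis, with 1 point per library and knockout libraries left of wild-type libraries. MYC lies above 150 in all libraries and MYCL below 2, and the groups of MYC, MYCL, MXD4, MNT and MGA are apart.

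MYC (chromosome 8, 127735434 to 127741434, plus strand, hg38) had 456, 456 and 469 CPM in KO replicates 1 to 3, against 522, 541 and 549 CPM in WT replicates 1 to 3. The groups did not overlap. Its transcript level in KO libraries was 85.7% of the WT level (95% interval 81.7 to 89.9), and the change was -0.22 ± 0.03 on the log2 scale (SE, n = 3 per group; edgeR, adjusted p = 6.28e-05). It was called in all 16 alternative analyses, with log2 fold changes between -0.25 and -0.17. The smallest change, -0.17, came with a correction for the GC content of transcripts.

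MYCL (chromosome 1, 39895426 to 39902256, minus strand), a paralog of MYC known as an oncogene of small cell lung cancer, had 4.45, 5.47 and 5.56 CPM in KO replicates 1 to 3, against 8.78, 8.13 and 9.999 CPM in WT replicates 1 to 3. All KO values lay below all WT values, and the lowest was that of KO replicate 1. At 57.5% of the WT level (95% interval 48.2 to 68.6) its change was -0.80 ± 0.12 on the log2 scale (SE, n = 3 per group; edgeR, adjusted p = 1.01e-04), the largest relative change among the members, in a gene of low level. MYCN, the paralog known from neuroblastoma, was listed at 0 in all 6 libraries. Since FBL, a nucleolar gene that growing cells use, was also listed at 0 in all libraries, that 0 was not read as absence of expression.

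Per length, the MYCL level was 0.578 to 0.710% of that of MYC in KO libraries and 0.891 to 1.08% in WT libraries.

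MAX, the partner that MYC needs and that MXD, MNT and MGA proteins also bind (chromosome 14, 65006174 to 65102695, minus strand), had 71.9, 77.8 and 76.6 CPM in KO replicates 1 to 3, against 75.2, 71.1 and 71.7 CPM in WT replicates 1 to 3. The groups overlapped, and the change of 0.05 ± 0.05 on the log2 scale (SE, n = 3 per group; edgeR, adjusted p = 0.520) did not pass. The 95% interval of its KO level ran from 96.7% to 111% of WT.

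Among the repressors that pair with MAX, MXD4 and MNT fell and MXD1 and MXD3 did not pass. MXD4 (chromosome 4, 2247432 to 2262294, minus strand), a repressor associated with cell cycle exit and differentiation, had 28.3, 30.2 and 30.2 CPM in KO replicates 1 to 3, against 38.5, 36.9 and 42.1 CPM in WT replicates 1 to 3. Every KO library lay below every WT library, with WT replicate 3 the highest. The KO level was 75.5% of the WT level (95% interval 68.8 to 82.8), a change of -0.41 ± 0.06 on the log2 scale (SE, n = 3 per group; edgeR, adjusted p = 1.52e-04), called in all 16 alternatives.

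MNT (chromosome 17, 2384060 to 2401118, minus strand), a broadly expressed antagonist of MYC, had 23.0, 21.4 and 24.6 CPM in KO replicates 1 to 3, against 26.1, 28.1 and 28.8 CPM in WT replicates 1 to 3. The groups did not overlap, but the highest KO value, in replicate 3, came close to the lowest WT value, in replicate 1. Its change was -0.27 ± 0.07 on the log2 scale (SE, n = 3 per group; edgeR, adjusted p = 0.0152), at 83.1% of the WT level (95% interval 74.99 to 92.2). The call was lost without KO replicate 1, KO replicate 2 or WT replicate 2 (edgeR, adjusted p = 0.0572, 0.114 and 0.0716). It was also lost with the GC correction, at -0.16 (edgeR, adjusted p = 0.0678).

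MXD3 (chromosome 5, 177301461 to 177312757, minus strand), the member of its family linked to S phase, had 145, 145 and 151 CPM in KO replicates 1 to 3, against 139, 146 and 148 CPM in WT replicates 1 to 3. The groups overlapped and the change of 0.02 ± 0.04 on the log2 scale (SE, n = 3 per group; edgeR, adjusted p = 0.785) did not pass. With the GC correction MXD3 was called higher, at 0.12 (edgeR, adjusted p = 0.00487), and without WT replicate 1 its value was -0.0078. MXD1 (chromosome 2, 69897688 to 69942945, plus strand), the founding member of the family, had 53.7, 51.9 and 54.4 CPM in KO replicates 1 to 3, against 52.8, 54.3 and 49.4 CPM in WT replicates 1 to 3. It did not pass at 0.03 ± 0.05 on the log2 scale (SE, n = 3 per group; edgeR, adjusted p = 0.757), and was at -0.0059 without WT replicate 3.

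**Figure D2:**
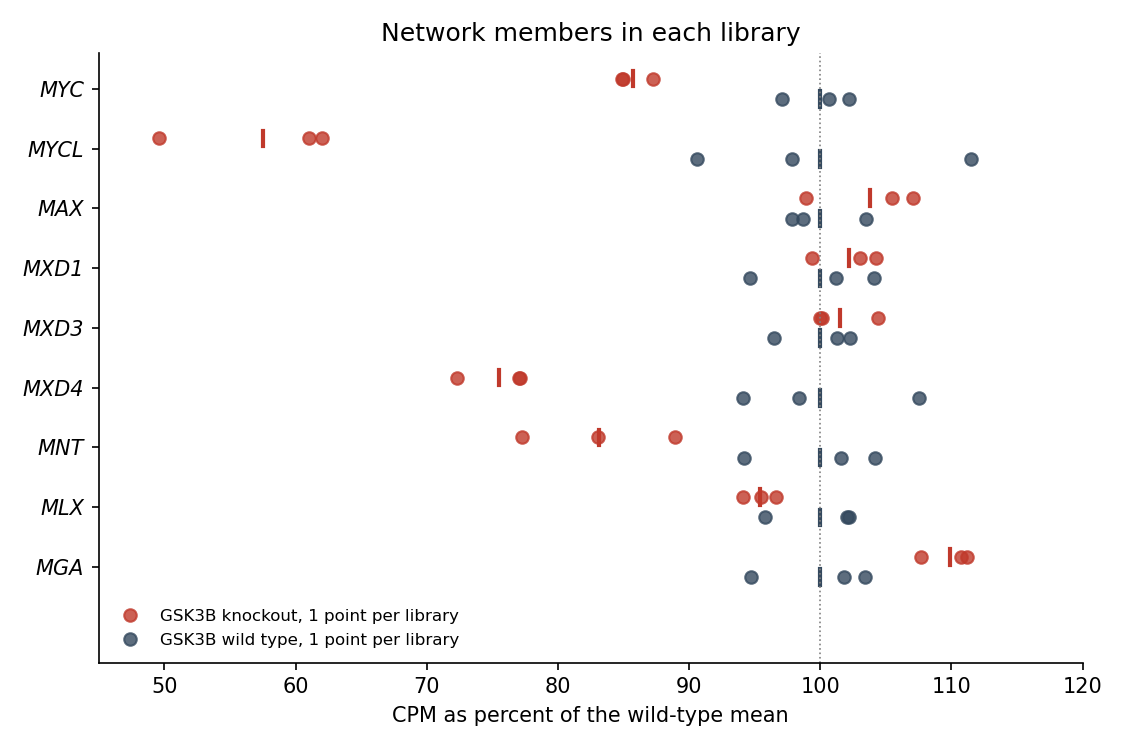
CPM of the 9 tested members in each library as percent of the wild-type mean, knockout above wild type, with vertical bars at group means. The groups are apart for MYC, MYCL, MXD4, MNT and MGA and overlap for MAX, MXD1, MXD3 and MLX.

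MLX (chromosome 17, 42567068 to 42573239, plus strand) had 95.6, 98.2 and 97.0 CPM in KO replicates 1 to 3, against 104, 104 and 97.3 CPM in WT replicates 1 to 3. The value of WT replicate 3 fell within the KO range, and the change of -0.07 ± 0.05 on the log2 scale (SE, n = 3 per group; edgeR, adjusted p = 0.350) did not pass. MGA (chromosome 15, 41621224 to 41773081, plus strand) was the one member with every KO library above every WT library, with 107, 108 and 104 CPM in KO replicates 1 to 3, against 100.4, 98.8 and 91.9 CPM in WT replicates 1 to 3. The KO level was 109.9% of the WT level (95% interval 103 to 117), but the change of 0.14 ± 0.05 on the log2 scale (SE, n = 3 per group; edgeR, adjusted p = 0.0517) narrowly missed the threshold. It was called in 6 of 16 alternatives, among them DESeq2 (adjusted p = 0.0449), the replicate block (edgeR, adjusted p = 0.0385) and the fit without WT replicate 1 (edgeR, adjusted p = 0.0222). Together with the 4 that fell, 5 of 9 tested members had groups that did not overlap, against 31.3% of all tested genes.

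The GC content of the members' longest transcripts ran from 42.0% for MGA to 61.4% for MNT. With the GC correction 3 members, MYC, MYCL and MXD4, were called lower and 2, MXD3 and MGA, higher. Over all genes that correction called 1979 higher and 1065 lower (13.7% and 7.39%), in place of 917 and 1034. Scaling by library size alone called 649 higher and 1229 lower (8.53% lower). Under library-size scaling the 4 calls of members were the same, with MYC at -0.24 and MNT at -0.29.

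**Figure D3:**
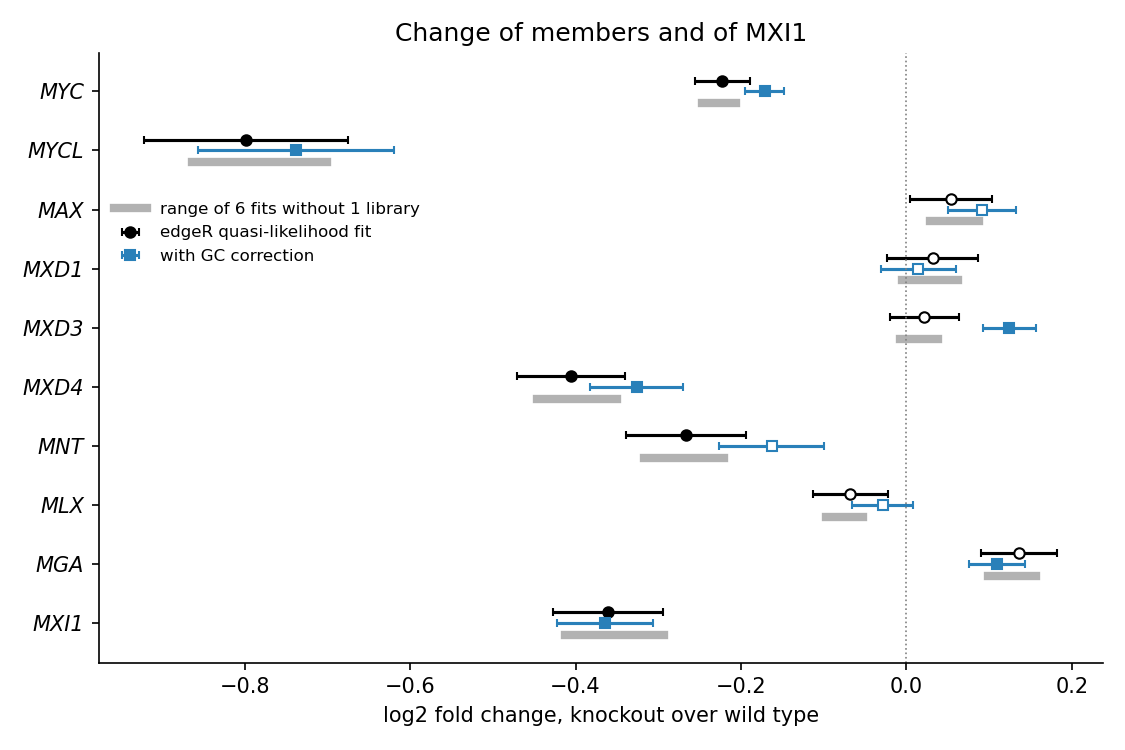
Log2 fold change of each tested member and of MXI1, knockout over wild type, with standard errors, from edgeR without (circles) and with (squares) the GC correction, filled where the adjusted p was under 0.05. Grey bars span the 6 fits without 1 library, and MYC, MYCL, MXD4, MNT, MLX and MXI1 lie below 0 throughout, with MNT called without the correction and not with it.

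The balance of activator to repressor transcripts was set out per library as a description, chosen after the values were seen. The ratio of MYC to MAX RNA per length was 8.66 to 9.36 in KO libraries and 10.2 to 11.3 in WT libraries. Relative to the sum of MXD1, MXD3, MXD4 and MNT it was 3.48 to 3.54 in KO libraries and 3.97 to 4.001 in WT libraries. Neither ratio overlapped between the groups, and both were lower in every KO library than in every WT library. MYC RNA alone was also lower in every KO library, so the ratios are no result separate from that of MYC. MXD3, whose exons overlap other genes, made up 65.0 to 65.3% of the sum in KO libraries and 61.8 to 62.7% in WT libraries, and without it the ratios were 9.98 to 10.2 in KO libraries and 10.4 to 10.7 in WT libraries. The outcome depended on which repressors were summed. With MXI1, another MXD family repressor, added to the 4 genes the ratio was 2.96 to 3.00 in KO libraries and 3.21 to 3.33 in WT libraries, again apart. With MXI1 added and MXD3 left out it was 6.53 to 6.85 in KO libraries and 6.49 to 6.98 in WT libraries, and the groups overlapped. MXD4 supplied 9.30 to 9.96% of the sum in KO libraries and 11.5 to 13.1% in WT libraries. With the longest transcript as length the mean MYC to MAX ratio was 8.15 in KO and 9.87 in WT libraries, against 9.02 and 10.9 with all exon bases. With that length MXD3 averaged 64.4 CPM per kilobase in KO and 63.4 in WT libraries, against 28.5 and 28.0 with all exon bases. MYC averaged 195 in KO and 227 in WT libraries, against 153 and 179. The ratios to the repressor sum were not computed with that length.

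**Figure D4:**
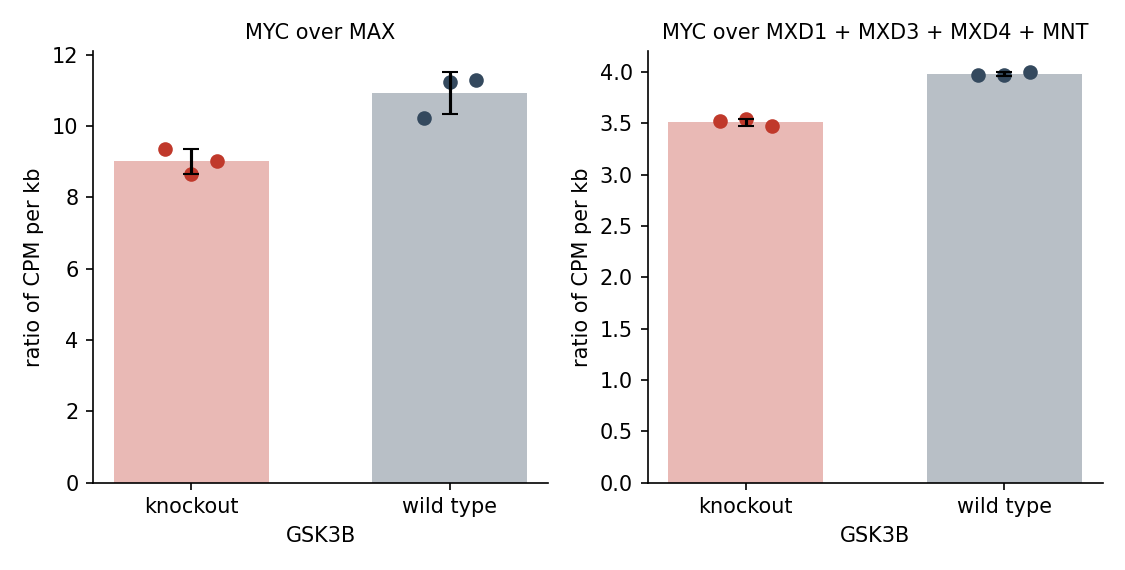
Ratio of MYC to MAX (left panel) and of MYC to the sum of MXD1, MXD3, MXD4 and MNT (right panel), from CPM per kilobase of exon, with bars at the mean, error bars of 1 SD and 1 point per library. Both ratios are lower in all 3 knockout libraries than in all 3 wild-type libraries.

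The promoters of the 3 called members other than MYC are shown since these genes were called in the same direction. They are RefSeq sequences of GRCh38.p14, from 250 bases before to 50 after the start, with E-boxes (CACGTG, the same on both strands) in capitals.
MYCL, chr1:39901868-39902167, minus strand: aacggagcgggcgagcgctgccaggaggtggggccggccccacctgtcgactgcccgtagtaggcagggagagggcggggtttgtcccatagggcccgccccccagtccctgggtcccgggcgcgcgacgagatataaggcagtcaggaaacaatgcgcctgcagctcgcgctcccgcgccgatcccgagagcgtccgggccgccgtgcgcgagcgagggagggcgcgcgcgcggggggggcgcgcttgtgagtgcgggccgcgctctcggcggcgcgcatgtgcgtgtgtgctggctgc
MXD4, chr4:2262060-2262359, minus strand: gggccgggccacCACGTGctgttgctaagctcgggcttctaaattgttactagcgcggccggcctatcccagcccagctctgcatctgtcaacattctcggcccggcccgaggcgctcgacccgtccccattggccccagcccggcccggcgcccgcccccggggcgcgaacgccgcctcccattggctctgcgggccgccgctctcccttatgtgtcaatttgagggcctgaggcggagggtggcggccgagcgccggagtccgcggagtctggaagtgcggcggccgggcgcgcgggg
MNT, chr17:2401011-2401310, minus strand: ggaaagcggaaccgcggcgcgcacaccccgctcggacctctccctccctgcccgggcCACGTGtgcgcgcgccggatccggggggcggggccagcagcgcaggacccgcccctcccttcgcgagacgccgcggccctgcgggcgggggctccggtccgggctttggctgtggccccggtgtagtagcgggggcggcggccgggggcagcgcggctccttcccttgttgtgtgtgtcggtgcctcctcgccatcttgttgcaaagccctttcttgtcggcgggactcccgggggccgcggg
The E-box was searched in the promoters of the 9 members with an entry, all but MYC, and MXD4, MNT and MLX held 1 each. Of all 35116 promoters 7.26% had a match. That share counts promoters and not genes, and MAX and MGA have more than 1 promoter each, so the figures differ in unit. Promoters of like G and C content were not compared. In MXD4 it began 238 bases and in MNT 193 bases before the start, and in MLX, which did not pass, 50 bases before it. MYCL held no E-box in this window. A TCF/LEF motif (CTTTGAT, or ATCAAAG on the other strand) was in 0 of these 9 and in 2.62% of all promoters, and the E2F motif TTTCGCGC (GCGCGAAA on the other strand) was in MYCN alone and in 0.515% of all. No member's promoter held more than 1 of the 3 motifs, so no matches overlapped. A match is only a run of letters. All 3 printed promoters were rich in G and C, at 74.7% in MYCL, 72.3% in MXD4 and 76.0% in MNT, against a median of 58.7% over all promoters.

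Of 2 other tested genes of the network 1 fell, where 7.18% of all tested genes were called lower. MXI1, which is no member here, had 37.6, 35.6 and 33.0 CPM in KO replicates 1 to 3, against 44.7, 49.6 and 42.2 CPM in WT replicates 1 to 3. No KO library reached the lowest WT library, and the change was -0.36 ± 0.07 on the log2 scale (SE, n = 3 per group; edgeR, adjusted p = 7.08e-04), called in all 16 alternatives. MLXIP, the MLX partner, had 137 ± 5.14 CPM in KO and 133 ± 8.12 CPM in WT libraries (SD, n = 3) and did not pass at 0.05, while with the GC correction it was called higher at 0.13 (edgeR, adjusted p = 0.00594). MLXIPL had at most 4 counts in any library and was not tested. TXNIP, an inhibitor of glucose uptake and the best known target of MLXIP with MLX, had 235, 243 and 235 CPM in KO replicates 1 to 3, against 286, 298 and 281 CPM in WT replicates 1 to 3. Its change was -0.28 ± 0.04 on the log2 scale (SE, n = 3 per group; edgeR, adjusted p = 1.13e-05), with no overlap. ARRDC4, the second such target, did not pass at -0.06 (edgeR, adjusted p = 0.609).

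Among 29 genes that set the phosphorylation and turnover of the MYC protein, 4 rose, 4 fell and 21 did not pass, or 27.6% called against 13.5% of all genes, with a median of 0.02. GSK3B, the gene knocked out per the labels, is among the 4 that fell. FBXW7, the ligase subunit that reads the GSK3 site and is named here after its values were seen, had 27.9 ± 0.919 CPM in KO and 27.9 ± 2.66 CPM in WT libraries (SD, n = 3). Its KO level had a 95% interval of 90.1% to 111% of WT. FBXO32, a muscle atrophy ubiquitin ligase subunit, fell at -0.40 (edgeR, adjusted p = 0.00555). CIP2A, an inhibitor of the phosphatase PP2A, rose at 0.25 (edgeR, adjusted p = 0.0188), with 1 WT library inside the KO range. Without KO replicates 1, 2 and 3 in turn the number that rose was 2, 2 and 3 and the number that fell 3, 2 and 2, and without WT replicates 1, 2 and 3 in turn the number that rose was 4, 2 and 4 and the number that fell 6, 3 and 3. Over all genes the fits without a KO replicate called 457, 361 and 545 higher and 637, 589 and 660 lower. Those without a WT replicate called 1259, 456 and 1022 higher and 1272, 616 and 1024 lower. CIP2A was not called without KO replicate 1, KO replicate 2, WT replicate 2 or WT replicate 3 (edgeR, adjusted p = 0.107, 0.0709, 0.0995 and 0.0622). With the GC correction 8 of the 29 rose and 4 fell, where 1979 of all genes rose and 1065 fell. With library-size scaling 3 rose and 7 fell, where 649 of all genes rose and 1229 fell. The even split thus depended on these settings.

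The 19 tested coactivators and partners of MYC had a median log2 fold change of 0.02. Of 19 SIN3 and NCOR corepressor genes 1 rose and 18 did not pass (5.26% called against 13.5% of all genes, median 0.0037). It was the SIN3 subunit gene ARID4B, at 0.25 (edgeR, adjusted p = 0.0284). ARID4B shares 1603 of its 11073 exon bases with RBM34 and lost its call without KO replicate 1, KO replicate 2 or WT replicate 3 (edgeR, adjusted p = 0.122, 0.136 and 0.102).

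In the complex PRC1.6 that holds MGA, 2 of 14 genes rose, 1 fell and 11 did not pass (21.4% called against 13.5% of all genes, median 0.07). TFDP2, a dimerisation partner of E2F factors, fell with 73.3 ± 3.66 CPM in KO and 87.9 ± 1.11 CPM in WT libraries (SD, n = 3), a change of -0.26 ± 0.05 on the log2 scale (SE, n = 3 per group; edgeR, adjusted p = 7.13e-04). CBX3, a heterochromatin protein gene, rose at 0.17 and TFDP1, the other E2F partner, at 0.11 (edgeR, adjusted p = 0.0165 and 0.0408). CBX3 lost its call without KO replicate 1 or KO replicate 2 (edgeR, adjusted p = 0.0994 and 0.0793), and among the fits without 1 library TFDP1 passed only without WT replicate 3. In this complex 4 genes rose and 1 fell with the GC correction, where 13.7% of all genes rose and 7.39% fell.

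Of 29 tested genes that regulate MYC transcription or MYC mRNA, 7 rose, 2 fell and 20 did not pass (31.0% called against 13.5% of all genes, median 0.06). SMAD3, which carries TGF-beta signals and can repress MYC, had 3.99, 4.63 and 3.64 CPM in KO replicates 1 to 3, against 14.7, 14.4 and 13.3 CPM in WT replicates 1 to 3, the largest change of the list at -1.79. IGF2BP2, an RNA-binding protein that binds MYC mRNA, fell, with 62.5 ± 0.523 CPM in KO and 76.2 ± 4.01 CPM in WT libraries (SD, n = 3). FUBP1, which binds a single-stranded element upstream of MYC, rose, with 125 ± 2.91 CPM in KO and 108 ± 4.85 CPM in WT libraries (SD, n = 3), as did TIAL1, which binds AU-rich RNA, at 0.20. The adjusted p-values in edgeR were 2.09e-10 for SMAD3, 4.50e-04 for IGF2BP2, 0.00393 for FUBP1 and 0.00608 for TIAL1. CTNNB1, the beta-catenin gene, named after its values were seen, had 427 ± 5.86 CPM in KO and 425 ± 15.8 CPM in WT libraries (SD, n = 3) and did not pass. Without KO replicates 1, 2 and 3 in turn 4, 3 and 4 of the list rose and 2, 2 and 2 fell. These fits called 457, 361 and 545 of all genes higher and 637, 589 and 660 lower. Without WT replicates 1, 2 and 3 in turn 9, 4 and 8 of the list rose and 2, 2 and 2 fell. There 1259, 456 and 1022 of all genes were called higher and 1272, 616 and 1024 lower. After the GC correction 12 rose and 3 fell, where 13.7% of all genes rose and 7.39% fell.

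Of 10 tested neighbours of MYC on chromosome 8, 1 rose, 1 fell and 8 did not pass (20.0% called against 13.5% of all genes, median -0.05). PVT1, the long noncoding RNA gene next to MYC, had 23.9 ± 1.65 CPM in KO and 25.6 ± 1.39 CPM in WT libraries (SD, n = 3) and did not pass at -0.10 (edgeR, adjusted p = 0.412), and CCAT1 stood at -0.0050. CASC8 fell at -0.34 and PRNCR1 rose at 0.38 (edgeR, adjusted p = 0.0270 and 0.0341), with at most 13.9 and 7.86 CPM in any library. Among the fits without 1 library CASC8 passed only without KO replicate 2 or WT replicate 3, and PRNCR1 only without WT replicate 3. LRATD2, FAM49B, ASAP1, TMEM75, CASC19 and POU5F1B, a copy of POU5F1 whose counts are uncertain, did not pass. CASC11, CCAT2, PCAT1 and GSDMC were too low to test, and ADCY8 was listed at 0 in all libraries. Under the GC correction 2 fell and the other 8 did not pass, where 7.39% of all genes fell.

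Genes that MYC is known to activate were grouped by function. Of 31 tested nucleolar and translation genes 15 rose and 16 did not pass (48.4% called, median 0.12). Of all tested genes 6.36% were called higher and 13.5% in either direction. In the KO libraries MYC RNA itself was lower, and the cause of the rise of these genes was not tested. UTP20, of the small-subunit processome, had 66.6 ± 1.92 CPM in KO and 48.3 ± 4.33 CPM in WT libraries and POLR3G, an RNA polymerase III subunit, had 57.3 ± 4.84 CPM in KO and 44.9 ± 3.55 CPM in WT libraries (SD, n = 3). NOP58, of the box C/D snoRNP, rose at 0.26 and EEF1E1, of the multisynthetase complex, at 0.26, and EEF1E1 did not pass without KO replicate 1 or KO replicate 2 (edgeR, adjusted p = 0.0547 and 0.0627). Without KO replicates 1, 2 and 3 in turn the number that rose was 8, 5 and 10, and without WT replicates 1, 2 and 3 in turn the number that rose was 14, 10 and 16. Over all genes the same fits called 457, 361 and 545 higher without a KO replicate and 1259, 456 and 1022 without a WT replicate. With the GC correction 23 rose, where 13.7% of all genes were called higher.

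Of 29 tested genes of nucleotide and polyamine synthesis 6 rose and 23 did not pass (20.7% called against 13.5% of all genes, median 0.07). ODC1, the rate-limiting enzyme of polyamine synthesis, had 485, 489 and 498 CPM in KO replicates 1 to 3, against 424, 436 and 424 CPM in WT replicates 1 to 3. All KO values lay above all WT values, at 0.20 ± 0.03 on the log2 scale (SE, n = 3 per group; edgeR, adjusted p = 2.00e-04). AMD1, which makes the aminopropyl donor of that pathway, had 164 ± 5.12 CPM in KO and 138 ± 8.77 CPM in WT libraries (SD, n = 3) and rose at 0.25, and the purine enzyme ADSS2 and the ribose phosphate kinase PRPS1 rose at 0.27 and 0.21. The adjusted p-values in edgeR were 6.56e-04 for AMD1, 9.74e-04 for ADSS2 and 0.00367 for PRPS1. Without KO replicates 1, 2 and 3 in turn 5, 4 and 4 of the list rose and 0, 0 and 0 fell. These fits called 457, 361 and 545 of all genes higher and 637, 589 and 660 lower. Without WT replicates 1, 2 and 3 in turn 6, 5 and 12 of the list rose and 0, 0 and 1 fell. There 1259, 456 and 1022 of all genes were called higher and 1272, 616 and 1024 lower. With the GC correction 14 rose and 2 fell, where 13.7% of all genes rose and 7.39% fell.

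Of 18 tested cell cycle genes 1 rose and 17 did not pass (5.56% called against 13.5% of all genes, median -0.00075). It was CDC25A, a phosphatase that activates cyclin-dependent kinases, with 93.9 ± 2.00 CPM in KO and 83.5 ± 1.67 CPM in WT libraries (SD, n = 3; edgeR, adjusted p = 0.0145). Of the cell cycle genes 3 rose and 1 fell with the GC correction, where 13.7% of all genes rose and 7.39% fell. CDC25A was not called without KO replicate 1, KO replicate 2 or WT replicate 2 (edgeR, adjusted p = 0.0833, 0.0912 and 0.0554). Of 22 genes of glycolysis, glutamine use and mitochondria 3 rose, 5 fell and 14 did not pass (36.4% called against 13.5% of all genes, median 0.05). The hexokinase gene HK2, the glucose transporter gene SLC2A1 and the lactate dehydrogenase gene LDHA fell, at -0.46, -0.61 and -0.38, and the mitochondrial chaperonin gene HSPE1 rose at 0.20. Without KO replicates 1, 2 and 3 in turn 1, 1 and 1 of these genes rose and 4, 4 and 4 fell. These fits called 457, 361 and 545 of all genes higher and 637, 589 and 660 lower. Without WT replicates 1, 2 and 3 in turn 5, 2 and 5 of the list rose and 7, 4 and 5 fell. There 1259, 456 and 1022 of all genes were called higher and 1272, 616 and 1024 lower. For the glycolysis, glutamine and mitochondria list the GC correction gave 10 that rose and 4 that fell, where 1979 of all genes rose and 1065 fell. With library-size scaling 2 rose and 6 fell, where 649 of all genes rose and 1229 fell. The GC correction, unlike library-size scaling, changed which direction held more calls.

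Of 20 tested genes listed as repressed by MYC, 5 fell and 15 did not pass (25.0% called against 13.5% of all genes). Whether and how MYC acts on each of them was not tested. Their median was -0.14, and -0.06 with the GC correction. TIMP2, an inhibitor of matrix metalloproteinases, had 1.49, 2.11 and 2.25 CPM in KO replicates 1 to 3, against 5.95, 5.29 and 6.996 CPM in WT replicates 1 to 3. PDGFRB, a growth factor receptor that is also among the fibroblast markers, was at most 2.14 CPM in any library and fell at -1.43. NDRG1, a stress-response gene, and CCNG2, an unconventional cyclin, fell at -0.58 and -0.49. By edgeR the adjusted p was 4.17e-07 for TIMP2, 9.20e-04 for PDGFRB, 2.09e-10 for NDRG1 and 6.95e-06 for CCNG2. CDKN1A, the p21 gene, named after its values were seen, had 291 ± 3.65 CPM in KO and 309 ± 11.8 CPM in WT libraries (SD, n = 3) and did not pass at -0.08 (edgeR, adjusted p = 0.137).

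**Figure D5:**
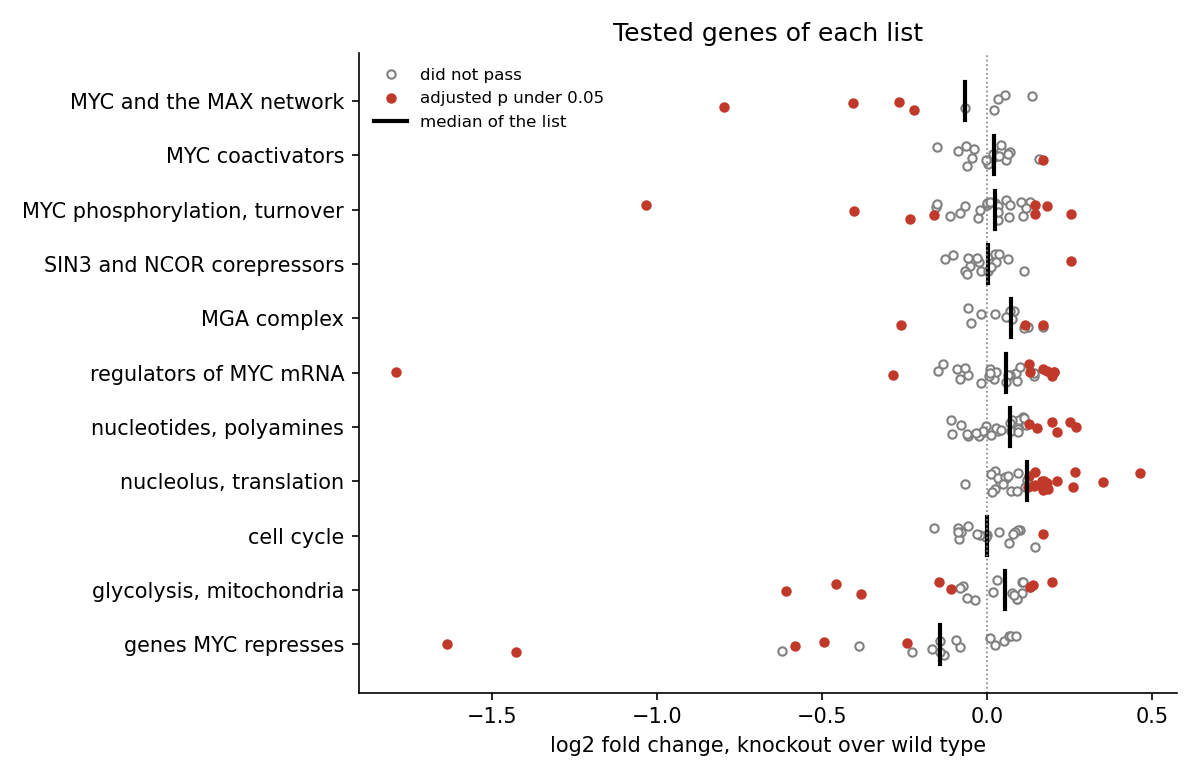
Log2 fold change, knockout over wild type, of every tested gene of the lists shown, filled where the adjusted p was under 0.05, with black bars at list medians and a dotted line at the median of all tested genes. The medians drawn run from -0.14 for genes listed as repressed by MYC to 0.12 for nucleolar and translation genes.

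The genes most like MYC over the 6 libraries, by the root mean square difference of centred log2 CPM, were CELSR2, FGFR1, PLOD1, GMPR and ADGRB2. Their distances were 0.0135 to 0.0181, where the median over 11221 genes with at least 5 CPM was 0.139. CELSR2, a cadherin family receptor, had 62.3 ± 1.34 CPM in KO and 72.2 ± 2.38 CPM in WT libraries, and FGFR1, a growth factor receptor, had 165 ± 1.39 CPM in KO and 190.2 ± 6.55 CPM in WT libraries (SD, n = 3). The lysyl hydroxylase gene PLOD1 stood at -0.22, the GMP reductase gene GMPR at -0.23 and ADGRB2 at -0.25, against -0.22 for MYC. With the GC correction CELSR2, FGFR1, PLOD1, GMPR and ADGRB2 were at -0.12, -0.17, -0.13, -0.17 and -0.14, against -0.17 for MYC. GMPR did not pass with or without that correction (edgeR, adjusted p = 0.0983 and 0.0527), and ADGRB2 did not pass with it (edgeR, adjusted p = 0.125). For MYCL, the other member with the smallest p, they were MAP1LC3C, GNAL, PFKFB4, POU2F2 and BCKDHA. They lay at distances of 0.106 to 0.132, against a median of 0.432. Of these MAP1LC3C, an autophagy gene, had 8.72 ± 0.943 CPM in KO and 14.0 ± 0.210 CPM in WT libraries (SD, n = 3). All distances rest on the same 6 libraries.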

How the data were processed

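The authors deposited whole-number read counts per gene symbol, not normalized, in 1 table per library, with no header. Per the labels' protocols, TRIzol RNA and a VAHTS Universal V6 kit gave paired-end 150 bp reads. The submitters' processing notes name hg38 as build and TopHat, limma and edgeR as tools. Counter, annotation and strand setting are not given here by any source, so overlapping genes and antisense reads cannot be told apart.

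Groups came from the sample titles. The analysis used edgeR 4.0.16 (R 4.3.3): filterByExpr (minimum count 10, minimum total 15) kept 14409 genes, followed by TMM scaling, a robust quasi-likelihood fit with group as its only term, and Benjamini-Hochberg adjustment over all tested genes (threshold 0.05). Standard errors were derived from each F statistic and its fold change. CPM values are TMM-scaled. No pair of replicates agreed within sampling noise (chi-square per degree of freedom 3.11 to 9.30). Each symbol was matched to GENCODE 29, and 26218 matched. Exon lengths count all annotated exon bases. Other named genes also share exon bases, among them EEF1E1 (393 of 2107, with EEF1E1-BLOC1S5). HSPE1 (281 of 1977, with HSPD1) and CBX3 (368 of 4641, with HNRNPA2B1) are further examples. Alternatives were RLE and library-size scaling, 2 filters, DESeq2 1.42.0, limma-voom (limma 3.58.1), leaving out each library, the replicate block, a fit without the robust option, and a GC correction (spline with 5 degrees of freedom per library, as offset; 95.9% of tested genes had a GC content) with and without the block. The length of the longest transcript and the other repressor sums were added after seeing the data. Members and lists were chosen with earlier results of these data known. All members are named, then up to 4 called genes per list with the largest change, short lists and neighbours of MYC whole, and the 5 genes most like MYC and MYCL. A few genes that this rule took are not reported here. Counting error was not separated from the spread between libraries, and intervals cover both.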

Additional observations from a re-analysis of the deposited data

How the results depend on the processing

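Of 144 member results under 16 alternatives 129 had the same direction and call as in the report, 5 lost the call (all of MNT), 8 gained one (6 of MGA and 2 of MXD3) and 2 changed sign. The count of all changed genes was 950 to 2531 without 1 library, 3044 with the GC correction and 3066 with that correction and the replicate block, against 1951. It was 1094, 950 and 1205 without KO replicates 1, 2 and 3 and 1072 without WT replicate 2. Signs changed for 6 genes near 0 that did not pass. Over the fits without 1 library MXD1 ranged over -0.0059 to 0.062, MXD3 over -0.0078 to 0.038, GSK3A over -0.010 to 0.073, ARRDC4 over -0.14 to 0.0049, CCAT1 over -0.030 to 0.026 and CASC19, at most 1.07 CPM, over -0.38 to 0.26. CASC19 was also at -0.0076 with library-size scaling, -0.019 with the replicate block, -0.060 with limma-voom, -0.017 with the GC correction and -0.041 with that correction and the block. The cause was not tested.

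Deviations of same-numbered libraries from their group means had correlations of 0.071, -0.0041 and 0.031, and not every library correlated best with its own number. With 3 libraries per group these values cannot show whether the numbers pair the samples. With the replicate number as a block 2193 genes were called, and MGA was called higher. The member count stayed between 3 and 5 in the 16 alternatives. Low counts limit MYCL, at 146 to 333 counts per library, more than MYC, at 14684 to 18285.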
